A study of Homo sapiens with 15 samples.

Results

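The SR genes examined here were SRSF1, SRSF2, SRSF3, SRSF4, SRSF5, SRSF6, SRSF7, SRSF9, SRSF10 and SRSF11, chosen by gene name as the serine/arginine-rich splicing factors and matched by Ensembl identifier. They were 10 of the 47634 genes in the count tables. The cells were IGROV-CP20, a human ovarian cancer cell line with acquired resistance to cisplatin, a platinum drug that cross-links DNA. The study asked how 3 drugs that lower the tolerance of these cells to cisplatin, Tranilast, Telmisartan and Amphotericin B, alter the transcriptome of cisplatin-treated cells. RNA was read by QuantSeq, which sequences a tag near the 3′ end of each transcript, so counts were not divided by gene length. There were 5 conditions with 3 biological replicates each. The first was untreated, the second was exposed to cisplatin (50 µM) over 24 h, and each of the 3 others had a 24 h pretreatment with a single drug at 10 µM before that cisplatin exposure. All conditions used the same resistant line, the drug arms were treated for longer than the cisplatin arm, and no arm used here received a drug without cisplatin.

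SR proteins carry RNA recognition motifs and a tail rich in arginine and serine. They bind exonic enhancers, help the U1 and U2 particles to define splice sites, and several of them accompany the spliced mRNA to the export receptor. Kinases of the SRPK and CLK families phosphorylate the tail, and many SR genes limit their own level through poison exons that send the transcript to nonsense-mediated decay. A tag at the 3′ end counts transcripts of a gene together and does not separate such isoforms.

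Library totals ran from 1510620 to 3517041 counts, and all 10 SR genes passed the filter on low counts, with 11113 genes tested. Raw counts of SRSF11 lay between 689 and 2541 per library, and those of SRSF10, the sparsest member, between 22 and 68. Mitochondrial ribosomal RNA took 1.79% to 2.20% of counts in untreated cells and 2.10% to 2.53% after Tranilast, against 12.3% to 14.8% after Amphotericin B. It was uneven within the cisplatin libraries (13.7%, 5.61% and 3.41% in replicates 1, 2 and 3) and the Telmisartan libraries (10.8%, 12.9% and 3.61%). Cisplatin replicate 1 and Telmisartan replicate 3 stood apart from their own conditions, with mean correlations to their fellow replicates of 0.90 and 0.92, the lowest of the 15 libraries. Each was closest to a library of another condition, as were cisplatin replicate 3 and Amphotericin B replicates 1 and 2. Of 12 ovarian epithelial markers, CLDN3 was at 0 in every library. MUC16, CLDN4, WT1, PAX8 and KRT7 each averaged under 1 CPM (counts in 1000000) over the libraries. The list summed to 156 to 220 CPM, led by KRT18 and EPCAM, and these sparse markers added little to that sum. KRT18 ranged from 97.4 to 107 CPM in untreated cells and from 103 to 157 CPM in treated libraries, while EPCAM was at 46.4 to 50.4 CPM in untreated cells, 17.3 to 22.6 after cisplatin and 9.27 to 15.1 after Amphotericin B. The leukocyte list of 5 markers summed to 75.4 to 89.9 CPM in untreated cells and 4.52 to 28.7 in the treated libraries, led by PTPRC at 74.7 to 87.3 CPM in untreated cells, with CD3E at 0. The endothelial list reached at most 1.99, with VWF and CDH5 at 0, and the fibroblast list 9.29 to 50.8, led by COL1A1. The part of these shifts in the SR gene results was not tested, and in such bulk libraries a change in the share of cells cannot be told apart from a change in RNA per cell.

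The promoters of the 3 genes that changed with cisplatin are printed because SRSF3 fell while the others rose. Sequences are the 250 bases before the transcription start from RefSeq (GRCh38.p14), 5′ to 3′ on the strand of the gene, and capitals mark matches on either strand to the TATA element TATAAA, the pentamer of the CCAAT box, the Sp1 core GGGCGG, the ETS core CCGGAA, the CREB and ATF site TGACGT or the palindromic core of the NRF1 motif. The windows are chr6:36594112-36594361 on the plus strand for SRSF3, chr1:29181901-29182150 on the minus strand for SRSF4, and chr1:70221130-70221379 and chr1:70205446-70205695 on the plus strand for the downstream and upstream starts of SRSF11.
SRSF3: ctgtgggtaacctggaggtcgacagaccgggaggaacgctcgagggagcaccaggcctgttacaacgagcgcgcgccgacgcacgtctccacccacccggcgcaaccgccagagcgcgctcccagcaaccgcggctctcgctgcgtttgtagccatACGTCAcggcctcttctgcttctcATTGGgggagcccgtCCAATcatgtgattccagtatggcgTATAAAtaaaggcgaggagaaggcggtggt
SRSF4: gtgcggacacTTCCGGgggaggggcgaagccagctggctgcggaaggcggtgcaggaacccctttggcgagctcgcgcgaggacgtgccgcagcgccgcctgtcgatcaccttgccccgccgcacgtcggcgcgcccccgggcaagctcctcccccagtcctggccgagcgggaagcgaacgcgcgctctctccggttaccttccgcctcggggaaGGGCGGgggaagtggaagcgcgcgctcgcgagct
SRSF11 downstream start: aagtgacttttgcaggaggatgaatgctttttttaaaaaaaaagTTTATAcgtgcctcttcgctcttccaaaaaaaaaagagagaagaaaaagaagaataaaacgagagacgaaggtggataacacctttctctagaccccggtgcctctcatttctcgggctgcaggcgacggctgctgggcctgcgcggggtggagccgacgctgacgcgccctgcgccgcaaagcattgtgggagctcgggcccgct
SRSF11 upstream start: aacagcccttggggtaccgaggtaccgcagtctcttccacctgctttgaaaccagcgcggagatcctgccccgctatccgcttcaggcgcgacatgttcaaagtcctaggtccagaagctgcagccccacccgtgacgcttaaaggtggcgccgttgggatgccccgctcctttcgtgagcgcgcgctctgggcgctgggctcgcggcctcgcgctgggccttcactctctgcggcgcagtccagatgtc

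The SRSF3 window held TATAAA 30 bases before the start, CCAAT at 55 and, on the opposite strand, at 70, and TGACGT on the opposite strand at 94. The SRSF4 window held GGGCGG 34 bases before the start and CCGGAA on the opposite strand at 240. The downstream start of SRSF11 had a single TATAAA on the opposite strand at 206, and its upstream start had no match. Of all 35116 promoter windows, TATAAA was in 10.7%, CCAAT in 32.0%, GGGCGG in 42.6%, CCGGAA in 14.5%, TGACGT in 7.10% and the NRF1 core in 1.03%. Promoters were at hand for 9 of the 10 SR genes (SRSF2 was not matched), with 11 windows in all. TATAAA was found in 3 of these genes (SRSF3, SRSF7 and SRSF11), CCAAT in 1 (SRSF3), GGGCGG in 3 (SRSF4, SRSF6 and SRSF7), CCGGAA in 2 (SRSF4 and SRSF5), TGACGT in 3 (SRSF1, SRSF3 and SRSF5) and the NRF1 core in 0. These counts are of genes, with SRSF7 and SRSF11 matched if either of their windows held the motif, whereas the percentages are of windows. The matches are a description of the letters in each window. GC content ran from 52% at the downstream SRSF11 start to 73.6% at SRSF4.

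Cisplatin alone changed 3 SR genes, lowering SRSF3 and raising SRSF4 and SRSF11. Levels of SR genes are given as CPM scaled with TMM factors. Differences are log2 fold changes with a standard error (SE) derived from the F statistic of edgeR's quasi-likelihood test. P-values were adjusted by Benjamini-Hochberg over all genes tested, and genes were called under 0.05. The 3 calls of 10 stood beside 44.7% of all genes called in the same comparison, with 1 lower beside 23.6% and 2 higher beside 21.1%. The median log2 fold change of the 10 SR genes was 0.20, against -0.01 over all genes.

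**Figure D1:**
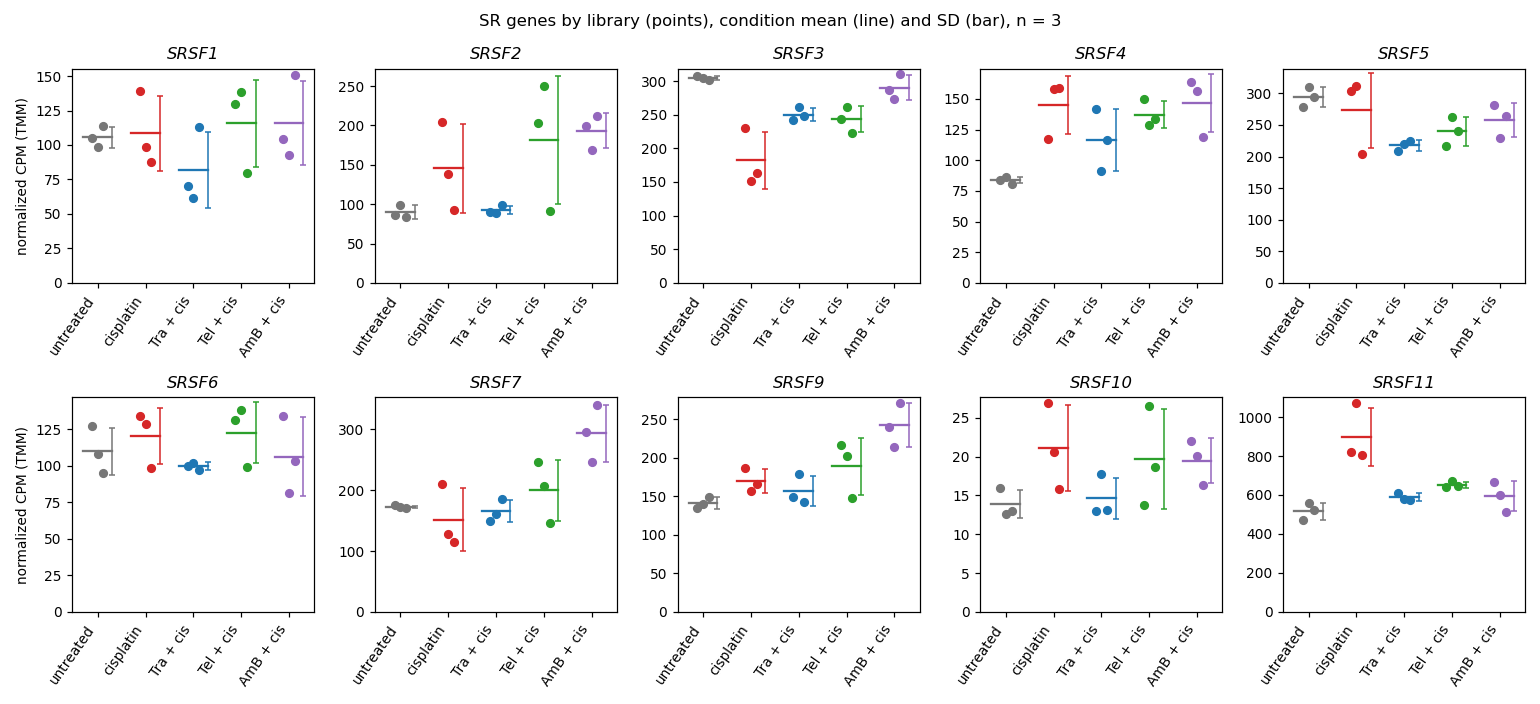
Normalized CPM of each SR gene (vertical axes, from 0) in the 15 libraries, grouped by condition on the horizontal axis: untreated, cisplatin, and Tranilast (Tra), Telmisartan (Tel) or Amphotericin B (AmB) followed by cisplatin. Points are libraries, horizontal lines condition means and bars 1 SD with n = 3. SRSF11 was at 804 CPM or more in each cisplatin library and at 671 CPM or less in all 12 others, and SRSF2 was spread widely within the cisplatin and Telmisartan conditions.

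SRSF11, an SR-related factor that contacts the spliceosome at the 3′ splice site, measured 471, 557 and 524 CPM in untreated cells. In cisplatin-treated cells it measured 823, 1071 and 804 CPM. The conditions did not overlap, and the log2 fold change was 0.80 (SE 0.17, adjusted p = 0.00151, n = 3 per condition). SRSF11 alone supplied 28.2% ± 1.62 (SD, n = 3) of the summed SR gene tags in untreated cells and 40.7% ± 5.48 after cisplatin. The sum of the other 9 genes was 1315 ± 15.5 CPM in untreated cells and 1317 ± 226 CPM after cisplatin.

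SRSF4, a large SR protein with a pair of RNA recognition motifs, measured 83.9, 86.0 and 81.0 CPM in untreated cells against 118, 158 and 159 CPM after cisplatin. Every cisplatin library was above every untreated library, with a log2 fold change of 0.80 (SE 0.19, adjusted p = 0.00295). SRSF3, the smallest SR protein and an adaptor for mRNA export, went the other way. It measured 308, 304 and 301 CPM in untreated cells and 230, 152 and 164 CPM after cisplatin. The log2 fold change was -0.74 (SE 0.17, adjusted p = 0.00211), and again the conditions did not overlap.

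SRSF9, a close relative of SRSF1, also lay above the untreated range in each cisplatin library, at 187, 157 and 166 CPM against 135, 139 and 149 CPM. Its log2 fold change of 0.26 (SE 0.18) had an adjusted p of 0.234 and was not called. So 4 of 10 SR genes had conditions that did not overlap, beside 53.5% of all genes. SRSF2 was at 0.69 (SE 0.29, adjusted p = 0.0626) and SRSF10 at 0.60 (SE 0.27, adjusted p = 0.0835), both with overlapping libraries.

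Scaling by library size alone moved the median of all genes in this comparison to -0.36 and the SR gene calls to 3 lower (SRSF3, SRSF5 and SRSF7) and 0 higher, beside 30.2% of all genes lower and 9.17% higher. Relative to that median, SRSF11 was at 0.81, SRSF4 at 0.83 and SRSF3 at -0.77. SRSF3 kept its call in all 26 alternatives, and SRSF4 and SRSF11 in 25 of 26 each.

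Tranilast before cisplatin left 1 SR gene, SRSF11, below its level with cisplatin alone, beside 22.2% of all genes called (11.6% lower and 10.5% higher). Tranilast is an anti-allergic drug that also limits fibrosis. SRSF11 measured 611, 581 and 573 CPM, below all cisplatin libraries, with a log2 fold change of -0.61 (SE 0.17, adjusted p = 0.0191). Against untreated cells the same libraries were 0.19 higher (95% confidence interval -0.18 to 0.55, adjusted p = 0.597).

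SRSF3 measured 242, 261 and 249 CPM after Tranilast, above every cisplatin library and below every untreated one. Its log2 fold change of 0.46 against cisplatin (SE 0.17) gave an adjusted p of 0.0582 and missed the threshold. Thus 2 SR genes did not overlap with cisplatin, beside 40.3% of all genes. SRSF2 measured 89.7, 89.4 and 99.1 CPM, within the untreated range of 83.2 to 99.6 CPM, while the cisplatin libraries ran from 92.9 to 205 CPM. The log2 fold change of SRSF2 against cisplatin was -0.65 (SE 0.29, adjusted p = 0.118).

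The SRSF11 call after Tranilast was less firm than that for cisplatin. It was kept in 19 of 26 alternatives and lost without cisplatin replicate 2 (-0.47, adjusted p = 0.108) and without each of Tranilast replicates 1, 2 and 3 (-0.63, -0.60 and -0.59). With library size scaling the median of all genes was 0.46 and SRSF11 was at -0.17, or -0.63 relative to that median, and the calls became 0 lower and 2 higher (SRSF3 and SRSF7), beside 3.57% of all genes lower and 23.2% higher.

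Telmisartan before cisplatin gave no called SR gene and no called gene of any kind in edgeR (0.00% of all genes, smallest adjusted p = 0.294). Telmisartan is an angiotensin receptor blocker used against hypertension. At an unadjusted p under 0.05 there were 2 SR genes, SRSF3 and SRSF11, and 10.3% of all genes. DESeq2 and limma-voom each called 0 SR genes. Over all genes DESeq2 called 55 of the 6804 it gave an adjusted p (0.808%), and limma-voom called 0.

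SRSF11 measured 642, 671 and 646 CPM after Telmisartan, below each cisplatin library, with a log2 fold change of -0.46 (SE 0.17, adjusted p = 0.376). It was the only SR gene whose conditions did not overlap, beside 9.27% of all genes. SRSF3 measured 244, 262 and 224 CPM, with a log2 fold change of 0.42 (SE 0.17, adjusted p = 0.401). SRSF2, which marks nuclear speckles, spread from 91.9 CPM in replicate 3 to 203 and 251 CPM in replicates 1 and 2.

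Without cisplatin replicate 1 and Telmisartan replicate 3, a choice made after seeing these data, 4 SR genes were called against cisplatin, beside 24.9% of all genes in that fit. SRSF2 was at 0.97, SRSF7 at 0.90 and SRSF3 at 0.68 on the log2 scale, and SRSF11 was at -0.52 (adjusted p from 0.000208 to 0.0154). Without cisplatin replicate 1 alone 2 were called, beside 4.81% of all genes. With both libraries left out, mitochondrial ribosomal RNA was at 5.61% and 3.41% in the cisplatin libraries kept. It was at 10.8% and 12.9% in the Telmisartan libraries kept, so drug and mitochondrial share cannot be told apart in that fit. An absence of calls with all libraries does not show that Telmisartan left these genes at the level of cisplatin alone.

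Amphotericin B before cisplatin raised SRSF3 and SRSF7 and lowered SRSF11 relative to cisplatin alone. The 3 calls of 10 stood beside 13.2% of all genes, with 2 higher beside 4.21% and 1 lower beside 9.01%. Amphotericin B is an antifungal that binds sterols in membranes.

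SRSF7, a zinc knuckle SR protein that like SRSF3 links spliced mRNA to the export receptor, measured 295, 246 and 340 CPM. In the cisplatin libraries it measured 211, 128 and 115 CPM and in untreated cells 175, 172 and 171 CPM. The log2 fold change against cisplatin was 0.96 (SE 0.23, adjusted p = 0.0136), and no library of the pair overlapped. SRSF3 measured 287, 273 and 310 CPM, above each cisplatin library, with a log2 fold change of 0.67 (SE 0.17, adjusted p = 0.0183). SRSF11 measured 667, 598 and 514 CPM, below each cisplatin library, with a log2 fold change of -0.60 (SE 0.17, adjusted p = 0.0331).

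SRSF9 was again uncalled yet separate, at 240, 214 and 271 CPM after Amphotericin B (log2 fold change 0.51, SE 0.18, adjusted p = 0.062). In all, 4 SR genes did not overlap, beside 24.6% of all genes. These calls depended on the libraries used: none of the SR genes was called without cisplatin replicate 2, without cisplatin replicate 3 or without Amphotericin B replicate 3, and 5 were called without cisplatin replicate 1. The share of all genes called moved with them, to 1.83%, 3.95% and 3.84% without the first 3 of these libraries and to 33.8% without cisplatin replicate 1, from 13.2% with all libraries. With library size scaling the median of all genes was -0.25, SRSF7 was at 0.81, SRSF11 at -0.82 and SRSF3 at 0.50 (adjusted p = 0.0537), giving 1 lower and 1 higher call, beside 7.65% and 2.18% of all genes. Scaling by RLE factors left SRSF11 at -0.54 with an adjusted p of 0.0532.

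**Figure D2:**
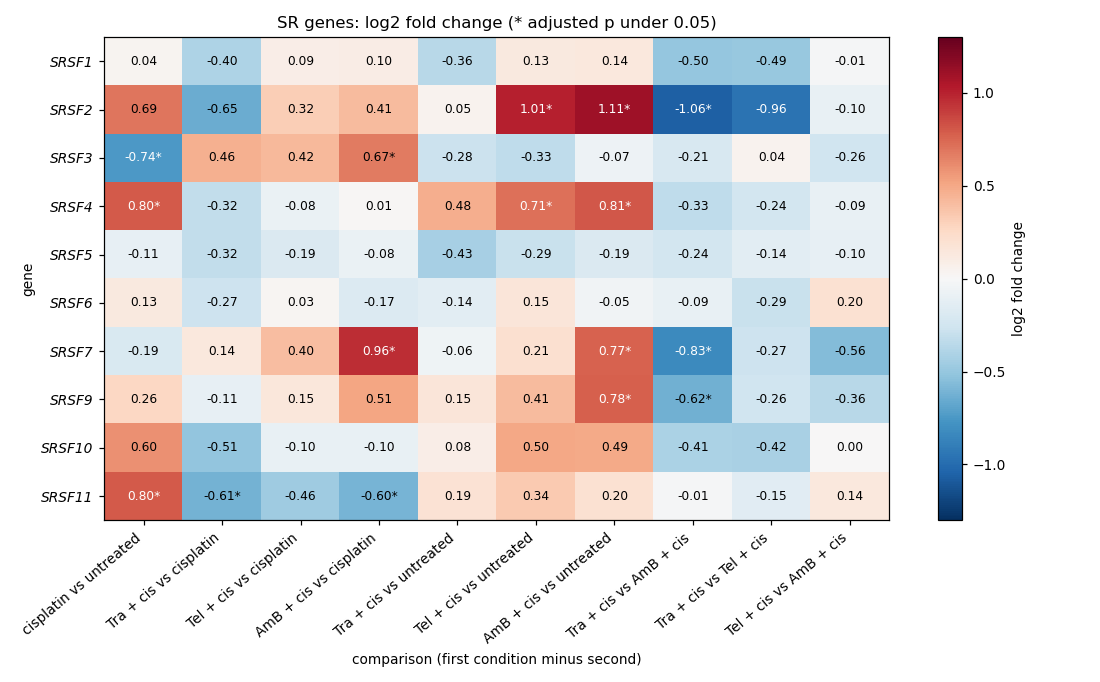
Log2 fold change of the 10 SR genes (rows) in the 10 comparisons (columns, the first condition minus the second, with Tra, Tel and AmB for the 3 drugs and cis for cisplatin). Red is higher, blue is lower, and an asterisk marks an adjusted p under 0.05. SRSF11 was at 0.80 with cisplatin and at -0.46 to -0.61 with each drug relative to cisplatin alone, and no cell of SRSF1, SRSF5, SRSF6 or SRSF10 has an asterisk.

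The 3 comparisons with cisplatin share its 3 libraries, so each drug arm was also set against untreated cells. Tranilast followed by cisplatin gave 0 called SR genes in edgeR, beside 8.10% of all genes, with 2 at an unadjusted p under 0.05 (SRSF4 and SRSF5, beside 21.4% of all genes). DESeq2 and limma-voom also called 0, beside 10.6% and 10.5% of all genes. SRSF4 was at 0.48 (95% confidence interval 0.08 to 0.87, adjusted p = 0.142) and SRSF5 at -0.43 (-0.80 to -0.06, adjusted p = 0.152). The absence of calls depended on the libraries in the fit. With only the 6 libraries compared, edgeR called SRSF4 (0.49) and SRSF11 (0.21) higher and SRSF3 (-0.25) and SRSF5 (-0.40) lower. Their adjusted p ran from 0.000395 to 0.0477, beside 36.4% of all genes called in that fit. Telmisartan gave 2 of 10, beside 28.7% of all genes. These were SRSF2 at 1.01 (SE 0.29, adjusted p = 0.0159), although its lowest Telmisartan library lay within the untreated range, and SRSF4 at 0.71 (SE 0.19, adjusted p = 0.0101), with 150, 129 and 133 CPM.

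Amphotericin B gave 4 of 10 higher than untreated cells and 0 lower, beside 17.6% of all genes called higher, 23.3% called lower and 40.9% in either direction. SRSF2 measured 199, 168 and 212 CPM against 86.4, 99.6 and 83.2 CPM in untreated cells, a log2 fold change of 1.11 (SE 0.30, adjusted p = 0.0068). SRSF4 was at 0.81 (SE 0.19, adjusted p = 0.00323), SRSF9 at 0.78 (SE 0.18, adjusted p = 0.00243) and SRSF7 at 0.77 (SE 0.23, adjusted p = 0.012). SRSF3 was at -0.07 (95% confidence interval -0.43 to 0.29) and SRSF11 at 0.20 (-0.17 to 0.56).

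These directions lean on the scaling. Under library size scaling the median of all genes for Amphotericin B against untreated cells was -0.75, and the SR gene calls were 0 higher and 3 lower (SRSF3, SRSF5 and SRSF6), beside 7.98% of all genes higher and 43.2% lower. Relative to that median SRSF2 stood at 1.29, SRSF4 at 0.998, SRSF9 at 0.96 and SRSF7 at 0.95. For Telmisartan against untreated cells the median was -0.27 and the calls were 1 higher (SRSF2) and 2 lower (SRSF3 and SRSF5), beside 5.64% and 18.5% of all genes.

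Compared with each other at the same dose and times, the 3 drug arms gave 10 SR genes in 3 comparisons, with p-values adjusted over all genes in each. After Tranilast, 3 of 10 were lower than after Amphotericin B and 0 higher, beside 16.4% of all genes lower, 19.7% higher and 36.0% in either direction. SRSF2 was at -1.06 (SE 0.30, adjusted p = 0.0113), SRSF7 at -0.83 (SE 0.23, adjusted p = 0.0102) and SRSF9 at -0.62 (SE 0.18, adjusted p = 0.0123), each without overlap. The uncalled SRSF3 and SRSF5 did not overlap either, 5 of 10 in all, and the share over all genes was not computed for this comparison. With library size scaling the median of all genes was 0.81, none of these was called, and SRSF3, SRSF6 and SRSF11 were called higher instead, beside 47.8% of all genes higher and 6.87% lower. Relative to that median SRSF2 was at -1.20, SRSF7 at -0.97 and SRSF9 at -0.77.

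Tranilast against Telmisartan gave 0 called SR genes in edgeR, beside 2.34% of all genes, with 1 at an unadjusted p under 0.05 (beside 22.6% of all genes), SRSF2 at -0.96 (95% confidence interval -1.58 to -0.35, adjusted p = 0.0724). DESeq2 called SRSF2 (1 SR gene), beside 12.9% of the 8312 genes it gave an adjusted p, and limma-voom 0, beside 0.063% of all genes. Without the pair of libraries that stand apart 5 were called lower after Tranilast, SRSF2 at -1.28 among them, beside 36.6% of all genes called and 17.3% called lower in that fit. The Telmisartan libraries kept there had 10.8% and 12.9% mitochondrial ribosomal RNA, against 2.10% to 2.53% after Tranilast. Drug and mitochondrial share cannot be told apart in that fit. Telmisartan against Amphotericin B gave 0 SR genes and 0.00% of all genes in edgeR, with 1 SR gene at an unadjusted p under 0.05 (beside 20.5% of all genes), SRSF7 at -0.56 (-1.04 to -0.08, adjusted p = 0.185). DESeq2 and limma-voom called 0 SR genes there, beside 1.66% and 0.018% of all genes.

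Levels of SRSF2, SRSF7 and SRSF9 were highest in libraries with a high share of mitochondrial ribosomal RNA. Within cisplatin the SRSF2 level was 205, 139 and 92.9 CPM in replicates 1, 2 and 3, in the order of their mitochondrial shares of 13.7%, 5.61% and 3.41%. Within Telmisartan the libraries at 10.8% and 12.9% had 203 and 251 CPM of SRSF2 and the library at 3.61% had 91.9 CPM. SRSF7 followed in part, at 211 CPM in cisplatin replicate 1 and 147 CPM in Telmisartan replicate 3, each the extreme of its condition. SRSF11 was high in all cisplatin libraries whatever their mitochondrial share. With the genes of the mitochondrial genome left out of the fit, the count of called SR genes in each of the 10 comparisons was the same. That fit drops the counts of these genes but keeps the same libraries, so it cannot separate SR gene levels from the mitochondrial share. The part of RNA quality or of the mitochondrial share in the SR gene differences was not tested.

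**Figure D3:**
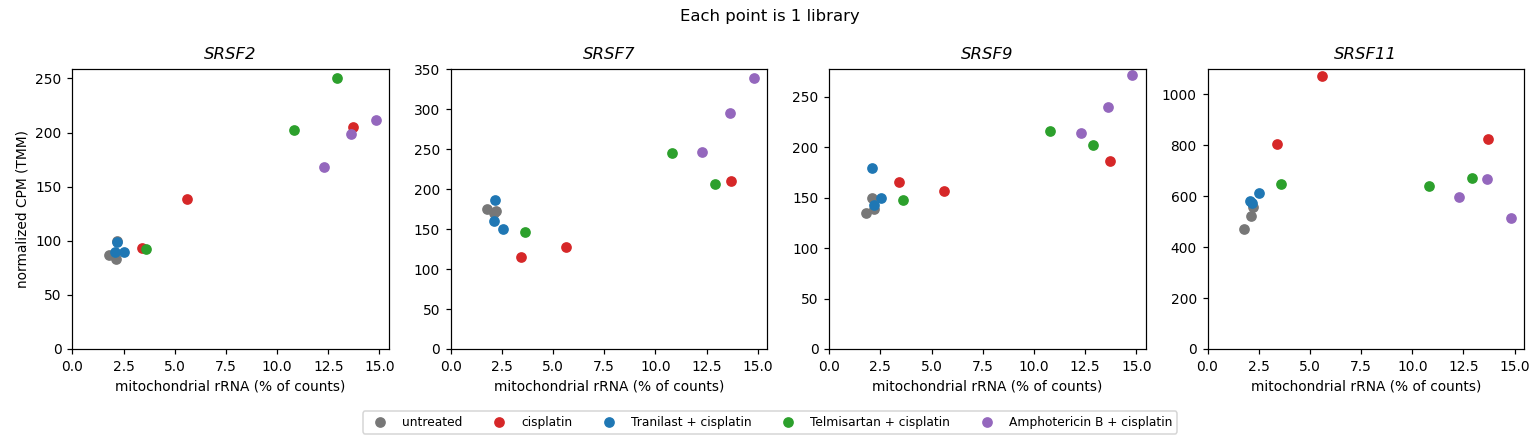
Normalized CPM of SRSF2, SRSF7, SRSF9 and SRSF11 (vertical axes, from 0) against the percent of counts from mitochondrial ribosomal RNA (horizontal axes), with 1 point per library and conditions in colour. Libraries above 10% had 168 CPM or more of SRSF2 and those below 4% had 99.6 CPM or less, while the SRSF11 points of the cisplatin condition lie at 804 CPM or more from 3.41% to 13.7%.

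A further 4 SR genes, SRSF1, SRSF5, SRSF6 and SRSF10, were called in no comparison in the fit of all 15 libraries with TMM factors. SRSF1, the founding SR protein, measured 98.4 to 114 CPM in untreated cells, 87.8 to 139 after cisplatin, 61.9 to 113 after Tranilast, 79.8 to 138 after Telmisartan and 93.0 to 151 after Amphotericin B. Its log2 fold change with cisplatin was 0.04 (95% confidence interval -0.51 to 0.58), so changes inside that interval remain possible. SRSF5 measured 278 to 311 CPM in untreated cells and 204 to 312 after cisplatin, and its 3 drug arms lay between 208 and 281 CPM. SRSF6, a relative of SRSF4, spanned 81.0 to 138 CPM over all 15 libraries, and its intervals against cisplatin ran no further than -0.69 to 0.45. SRSF10, a factor that represses splicing when it loses phosphate, was sparse, at 12.7 to 26.9 CPM.

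Neighbours in the order of condition means did not differ past the threshold for any of the SR genes. For SRSF11 the order from low to high was untreated (517 ± 43.5 CPM), Tranilast (589 ± 19.9), Amphotericin B (593 ± 76.9), Telmisartan (653 ± 15.7) and cisplatin (900 ± 149). For SRSF3 it was cisplatin (182 ± 42.2), Telmisartan (243 ± 19.2), Tranilast (250 ± 9.79), Amphotericin B (290 ± 18.8) and untreated (304 ± 3.41). For SRSF7 it was cisplatin (151 ± 51.8), Tranilast (166 ± 18.6), untreated (173 ± 2.25), Telmisartan (200 ± 50.0) and Amphotericin B (294 ± 46.8). All values are means ± SD with n = 3.

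Of the rest of the family, SRSF12 was matched. It measured 39.9, 38.0 and 49.4 CPM in untreated cells and 23.0, 16.7 and 18.7 CPM after cisplatin, a log2 fold change of -1.13 (SE 0.25, adjusted p = 0.00166). Its level after Tranilast was 25.7, 31.1 and 34.5 CPM, a log2 fold change of 0.66 against cisplatin (adjusted p = 0.068).

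Genes that act with SR proteins were called in both directions, at shares to be read against all genes, and the splits depended on the scaling. With cisplatin 21.1% of all genes were called higher, 23.6% lower and 44.7% in either direction. Relative to cisplatin the shares were 10.5% higher, 11.6% lower and 22.2% in all after Tranilast, and 4.21% higher, 9.01% lower and 13.2% in all after Amphotericin B. Under library size scaling the median of all genes was -0.36 for cisplatin against untreated cells, 0.46 for Tranilast against cisplatin and -0.25 for Amphotericin B against cisplatin. The shares of all genes called lower and higher were then 30.2% and 9.17%, 3.57% and 23.2%, and 7.65% and 2.18% in the same order, and the list splits under that scaling follow each list. Of 10 tested kinases and importers that phosphorylate or carry SR proteins, 5 fell and 3 rose with cisplatin, beside 23.6% and 21.1% of all genes (median log2 fold change -0.27, against -0.01 over all genes). SRPK2, an SR protein kinase, dropped from 202 ± 13.4 to 41.9 ± 18.5 CPM (log2 fold change -2.27, adjusted p = 7.5e-06), and DYRK1A, a kinase of speckle proteins, fell by 1.40 (adjusted p = 0.0021). After Tranilast 5 of the 10 were higher than with cisplatin alone and 1 lower, with SRPK2 at 1.41 (adjusted p = 0.00204) and DYRK1A at 1.38 (adjusted p = 0.00705). After Amphotericin B only SRPK2 was called, at 0.82 (adjusted p = 0.044), with CLK4 at -0.97 (adjusted p = 0.0507). With library size scaling the kinases and importers were 5 lower and 0 higher with cisplatin, 0 lower and 5 higher after Tranilast, and 1 lower and 0 higher after Amphotericin B.

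Of 16 SR-related splicing regulators, 5 rose and 2 fell with cisplatin, 7 calls in all beside 44.7% of all genes. ACIN1, which joins the exon junction complex, was at 1.02 (adjusted p = 0.000112), and RNPS1, a splicing activator of the same complex, at 1.03 (adjusted p = 0.000502). After Tranilast ACIN1 was lower than with cisplatin alone (-0.61, adjusted p = 0.0129) and SCAF8, which binds RNA polymerase II, higher (0.995, adjusted p = 0.0163). After Amphotericin B RNPS1 was the single call, at -0.64 (adjusted p = 0.0423), and ACIN1 was at -0.42 (adjusted p = 0.0899). These regulators, scaled by library size, were 4 lower and 2 higher with cisplatin and 0 lower and 3 higher after Tranilast, and with RLE or upper quartile factors 0 were called after Amphotericin B.

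The hnRNP proteins often oppose SR proteins at exons. Of 27 such genes 10 fell and 2 rose with cisplatin, beside 23.6% and 21.1% of all genes, led by SYNCRIP at -1.05 (adjusted p = 3.36e-05) and HNRNPA0 at 1.04 (adjusted p = 0.00016). Tranilast brought 6 above and 1 below cisplatin, beside 10.5% and 11.6% of all genes, with RBMX at 0.95 (adjusted p = 0.00365) and SYNCRIP at 0.70 (adjusted p = 0.00376). Amphotericin B brought 2 in each direction, and HNRNPA0 was at -0.83 (adjusted p = 0.00758) and HNRNPF at -0.87 (adjusted p = 0.0152). The hnRNP genes, scaled by library size, were 18 lower and 1 higher with cisplatin, 0 lower and 17 higher after Tranilast, and 2 lower and 1 higher after Amphotericin B.

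Of 39 core spliceosome genes tested, 16 rose and 2 fell with cisplatin, beside 21.1% and 23.6% of all genes, with a median of 0.35. SF3A3 of the U2 particle was at 1.17 (adjusted p = 8.44e-05) and AQR, an intron-binding helicase, at -1.33 (adjusted p = 0.000267). With Tranilast 14 were lower than with cisplatin alone and 1 higher, beside 11.6% and 10.5% of all genes, and SF3B5 was at -0.98 (adjusted p = 0.0031) and SNRPD2, an Sm protein, at -1.70 (adjusted p = 0.00471). Amphotericin B gave 1 call in each direction, PRPF4 at -1.65 (adjusted p = 0.00701) and SNRPA of the U1 particle at 0.72 (adjusted p = 0.0194). The core genes, scaled by library size, were 6 lower and 5 higher with cisplatin and 3 lower and 8 higher after Tranilast. Relative to the median of all genes their median was 0.36 with cisplatin under TMM and 0.32 under library size scaling, and -0.25 after Tranilast under both.

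Of 14 genes of nonsense-mediated decay and the exon junction, 5 rose and 1 fell with cisplatin, 6 calls in all beside 44.7% of all genes. The exon junction gene MAGOH was at 0.82 (adjusted p = 0.00499) and the endonuclease SMG6 at -1.93 (adjusted p = 0.000961). Tranilast left MAGOH (-0.96, adjusted p = 0.0056) and MAGOHB (-1.09, adjusted p = 0.0275) lower and no gene higher, and Amphotericin B left CASC3 lower (-0.70, adjusted p = 0.0299), with SMG8 at -0.88 (adjusted p = 0.0629). With library size scaling the decay and junction genes were 1 lower and 0 higher with cisplatin and 1 in each direction after Tranilast. With RLE factors 4 were lower after Tranilast, beside 13.3% of all genes lower with those factors. Of 10 export partners 2 rose and 1 fell with cisplatin, beside 21.1% and 23.6% of all genes, with NXF1, the export receptor that SRSF3 and SRSF7 contact, at 2.13 (adjusted p = 1.56e-05) and THOC2 at -1.20 (adjusted p = 8.66e-05). Tranilast brought NXF1 to -1.44 (adjusted p = 0.00204) and THOC2 to 0.74 (adjusted p = 0.00986) relative to cisplatin. Amphotericin B raised DDX39A (0.82, adjusted p = 0.0233) and ALYREF (0.73, adjusted p = 0.0384), both of which load export factors. The export partners, scaled by library size, gave 1 call in each direction with cisplatin and after Tranilast, and 1 higher after Amphotericin B.

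Telmisartan gave 0 called genes in each of these lists against cisplatin. The genes with the smallest adjusted p were SYNCRIP at 0.53 (adjusted p = 0.294), HNRNPA0 at -0.50, SRPK2 at 0.80 (adjusted p = 0.315), DYRK1A at 0.58, PRPF4 at -0.89, SF3B5 at -0.43, NXF1 at -0.49, DDX39A at 0.39, RNPS1 at -0.31, ACIN1 at -0.23, SMG8 at -0.40 and UPF2 at -0.20. At an unadjusted p under 0.05, beside 10.3% of all genes, there were 9 of 27 hnRNP genes, 2 of 39 core spliceosome genes, 1 of 10 kinases and importers, and 0 in the 3 other lists.

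**Figure D4:**
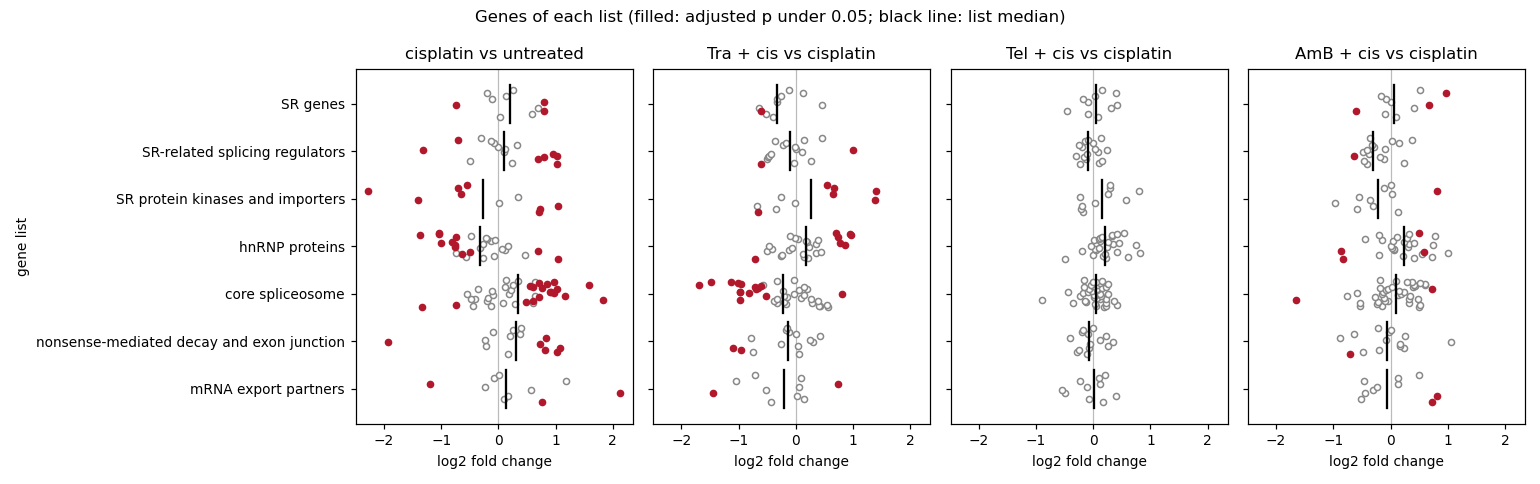
Log2 fold changes (horizontal axes, 1 panel per comparison, same scale) of the genes in each list (rows), with filled points for an adjusted p under 0.05, open points for the rest, and a black line at the list median. With cisplatin the core spliceosome median lies at 0.35 (-0.04 under library size scaling) and the hnRNP median at -0.32 (-0.68), and the Telmisartan panel has no filled point.

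SRSF2 and SRSF9 each overlap a coding gene on the opposite strand, MFSD11 with 12 to 65 counts and GATC with 10 to 39 counts per library. The strand setting of the counting is not given in the sources used here, so reads of these pairs cannot be told apart with certainty. Pseudogenes with SRSF names (13 in the tables, including SRSF8BP and SRSF8CP of SRSF8) held at most 6 counts in a library.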

How the data were processed

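Per the labels, 100 ng of total RNA per sample was made into QuantSeq 3′ libraries and sequenced single-end at 75 bases. The authors deposited 1 table per sample of raw counts per Ensembl gene. Their processing notes name STAR 2.3.0, HTSeq and the hg19 build, and the annotation and strand setting are not given in the sources used here. Symbols came from a table of gene names, which matched 45455 of 47634 identifiers, and SRSF8 was not matched. Overlaps between genes came from GENCODE on GRCh38, for names only.

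Counts were fitted in R 4.3.3 with edgeR 4.0.16 (glmQLFit and glmQLFTest), with TMM factors, filterByExpr by condition and 1 term per condition over all 15 libraries. P-values were adjusted by Benjamini-Hochberg within each comparison, with a threshold of 0.05. Standard errors were derived as the absolute log2 fold change divided by the square root of the F statistic of the test. Confidence intervals are at 95% and were built from these standard errors with quantiles of the t distribution. Alternatives were RLE, upper quartile or library size scaling, DESeq2 1.42.0, limma-voom (limma 3.58.1), other filters, only the 6 libraries compared, a replicate block and each library left out. Leaving out the libraries that stand apart, leaving out the mitochondrial genes, and the other scalings of the gene lists were added after seeing the data. The marker levels are CPM without scaling factors. On simulated counts the test recovered most genes changed by 2 on the log2 scale and a minority of those changed by 1, so an uncalled gene may have changed.

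The SR genes, the gene lists and the tests were chosen with earlier results of these data known. In each list and main comparison the 2 genes with the smallest adjusted p are named. Counts of replicates differed by 2.24 to 44.2 times the Poisson variance within conditions. Counting error was thus a sizeable part of the spread where that ratio was low, as within untreated and Tranilast. P-values rest on a spread between replicates estimated for each gene over all 15 libraries, not only those of the conditions compared. That variance was 2.24 to 3.34 times Poisson within untreated, 2.24 to 2.78 within Tranilast and 3.91 to 5.06 within Amphotericin B. It was 8.07 to 43.1 times Poisson within cisplatin and 3.43 to 44.2 within Telmisartan. The labels do not say whether the replicates were separate cultures.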

Additional observations from a re-analysis of the deposited data

Results flagged for a closer look

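The effects of Tranilast and Amphotericin B, both set against cisplatin, differed for 3 of 10 SR genes by the direct test between the drug arms, which called 36.0% of all genes. SRSF2 differed by -1.06 on the log2 scale (edgeR, adjusted p = 0.0113), with all 3 Tranilast libraries below all 3 Amphotericin B libraries. SRSF7 differed by -0.83 (adjusted p = 0.0102) and SRSF9 by -0.62 (adjusted p = 0.0123), also in 3 of 3 libraries. The uncalled SRSF3 and SRSF5 were separate in the same way, and the share of all genes without overlap was not computed here. Mitochondrial ribosomal RNA also separated the arms, at 2.10% to 2.53% of counts after Tranilast and 12.3% to 14.8% after Amphotericin B, and its part in the difference was not tested. Under library size scaling none of the 3 was called. With 3 libraries per condition no test for single outlying samples was made.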

How the results depend on the processing

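Counts of called SR genes moved by over 1.5 times as follows. In Tranilast against cisplatin the count of 1 (22.2% of all genes) became 2 with library size scaling (26.8%) or limma-voom (23.2%). It became 0 without a filter (10.4%) or with only the 6 libraries (17.2%), and 0 to 3 with 1 library left out. In Amphotericin B against cisplatin 3 (13.2% of all genes) became 0 with only the 6 libraries and 0 to 5 with 1 library left out. The share of all genes called moved with the library left out, as given above. With only the 6 libraries, Tranilast against untreated cells had 4 (36.4% of all genes called) and Tranilast against Amphotericin B had 7 (48.6%), while Amphotericin B against cisplatin had 0.967% of all genes. With DESeq2, Telmisartan against untreated cells had 4 (32.1%). Tranilast against Telmisartan had 1 with DESeq2 (12.9% of the 8312 genes given an adjusted p) and 1 (4.08%) without a filter. Leaving out 1 library gave 3 to 5 for cisplatin against untreated cells, 0 to 2 for Telmisartan against cisplatin, 1 to 3 for Telmisartan against untreated cells and 0 to 2 for Tranilast against Telmisartan. The shares of all genes called moved as well. Without untreated replicate 1 they were 35.0% for cisplatin against untreated cells, from 44.7% with all libraries. In the same fit Telmisartan against untreated cells was at 19.8%, from 28.7%, and Tranilast against Telmisartan at 0.0266%, from 2.34%. Without cisplatin replicate 1 and Telmisartan replicate 3 together, the counts were 4 for Tranilast (36.3% of all genes) and 4 for Telmisartan (24.9%) against cisplatin, 5 for Amphotericin B against cisplatin (43.4%), 2 for Tranilast (23.4%) and 5 for Telmisartan (47.5%) against untreated cells, and 5 for Tranilast against Telmisartan (36.6%). Under library size scaling 37 of the 100 SR gene log2 fold changes had the other sign, including 8 of the 10 for Tranilast against Amphotericin B, where the median of all genes was itself at 0.81. SRSF3 (0.45), SRSF6 (0.58) and SRSF11 (0.65) were then called higher, SRSF9 (0.0372) was no longer called, and SRSF1 (0.17), SRSF4 (0.33), SRSF5 (0.42) and SRSF10 (0.24) were called under neither scaling. RLE and upper quartile factors each changed 4 of the 100 signs. The cause was not tested in any of these. In the fit with a replicate block the count was 3 for cisplatin against untreated cells (44.8% of all genes) and no comparison's count changed. Same-numbered libraries of different conditions had deviations correlated from -0.23 to 0.63 (mean 0.02), so the numbers were not taken as pairs. Depth limits SRSF10 most, with 22 to 68 counts per library.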
